A study of Mus musculus with 6 samples.

Results

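The genes described here are those of cholesterol synthesis and its control by sterol regulatory element-binding proteins (SREBPs), of cholesterol transport, esterification and export under the liver X receptors (LXRs), and of fatty acid synthesis. A list of 41 genes was taken, and the rows whose mouse Ensembl identifier maps to a listed gene were kept; 39 genes had a row among the 12327 of the table, all 39 passed the filter on low values described below, and Scd1 and Fads2 are not analysed here. They were measured in total RNA, sequenced after removal of ribosomal RNA, of BV2 cells, an immortalised mouse microglial line grown with 10% fetal bovine serum. The GCH1-KD libraries are 3 from cells exposed for 48 hours to the adenovirus Ad-shGCH1, which carries a short hairpin RNA against GCH1, the first and rate-limiting enzyme of tetrahydrobiopterin synthesis. The negative control libraries are 3 from cells called Ad-NC in the treatment text and wild type in the series text; whether they received a virus is not clear from these labels, so exposure to virus and loss of Gch1 cannot be told apart. All 6 come from 1 subline of 1 cell line, and nothing in the labels says that the libraries of a group are separate cultures, so a p-value here reflects the scatter of these libraries alone, and that scatter may be technical.

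Cholesterol is built from acetyl-CoA through mevalonate, isoprenoid diphosphates, squalene and lanosterol. When membrane sterol is scarce, SCAP carries SREBPs from the endoplasmic reticulum to the Golgi, where they are cut to release transcription factors for the synthesis genes; when sterol is ample, INSIG proteins hold SCAP back. LXRs sense oxysterols and turn on the export pumps ABCA1 and ABCG1. Microglia take up lipid-rich debris such as myelin, and they esterify, export or store the cholesterol it brings. SREBP and LXR activity is set largely by protein processing and ligand, neither of which was measured here.

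Levels are FPKM, sequenced fragments scaled by transcript length and by library depth, a unit inferred from the deposited values. The targeted gene checked the labels. Gch1 was at 3.20, 2.93 and 3.43 FPKM in GCH1-KD and at 6.89, 7.22 and 7.23 FPKM in control libraries (log2 fold change -0.96, SE 0.06, limma adjusted p = 0.00542). Library sums were 224291 to 230292 FPKM, and Pearson's r across genes was 0.989 to 0.993 between any pair of libraries. The depth, estimated from the steps in which the values fall, was 6.32 to 7.61 Gb (gigabases) of aligned sequence in GCH1-KD and 5.25 to 5.58 Gb in control libraries. At that depth the mean coverage of the 39 genes in the shallowest of the libraries for each gene ran from 3.01 for Tm7sf2 to 497 for Npc2. Of 15 microglial markers 11 had a row, with summed levels of 975 to 1034 FPKM in GCH1-KD and 1023 to 1042 FPKM in control libraries; of the defining microglial genes P2ry12, Fcrls, Sall1 and C1qa had none. No neuronal marker of 5 had a row, and astrocytes had only Aldoc, oligodendrocytes Cnp, endothelial cells Vwf and Flt1, fibroblasts and mural cells Acta2, and lymphocytes Lck.

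None of the 39 genes passed the test between GCH1-KD and control. Genes were tested with limma on log2(FPKM + 1), with Benjamini-Hochberg (BH) adjustment over all 12222 genes that reached 0.5 FPKM in at least 3 libraries. At an adjusted p of 0.05, 0 of 39 genes were called, against 10 of 12222 genes, or 0.0818% (0.0245% higher and 0.0573% lower). The smallest adjusted p among the 39 was 0.307. Before adjustment 3 of the 39 had a p below 0.05, or 7.69% against 11.3% of all genes: Insig2 higher (2.56% against 6.47%) and Srebf2 and Mvd lower (5.13% against 4.82%). In 5 genes, or 12.8%, the libraries of the groups did not overlap against 18.4% of all genes. Of these, Insig2 and Acly were higher (5.13% against 9.99%) and Srebf2, Mvd and Fdps lower (7.69% against 8.36%). These shares were near or below the background.

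By the scatter of these libraries, the intervals of most genes were narrow. That scatter may be technical, so the intervals may be too narrow for separate cultures and do not bound the change between them. The 95% interval of the fold change lay inside a 1.5-fold change in either direction for 37 of the 39 genes (94.9%). It did so for 95.2% of all genes, and the exceptions among the 39 were Fdft1 and Dhcr7. These are intervals of FPKM + 1, and the added 1 shrinks the fold changes of scarce genes. With 0.1 or 0.5 added instead, the count was 36 of the 39. It was also 36 with same-numbered libraries fitted as a block. The median log2 fold change of the 39 genes was -0.024, with 25 below control and 14 above, beside a median of 0.0071 and 47% below control over all genes. By role, 4 of 5 regulators, 5 of 7 mevalonate-pathway genes and 9 of 11 squalene and sterol genes were below control, with medians of -0.061, -0.058 and -0.050. Of transport and esterification genes 1 of 4 was below control, of LXR and efflux genes 2 of 5 and of fatty acid genes 4 of 7, with medians of 0.0093, 0.0047 and -0.014.

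**Figure D1:**
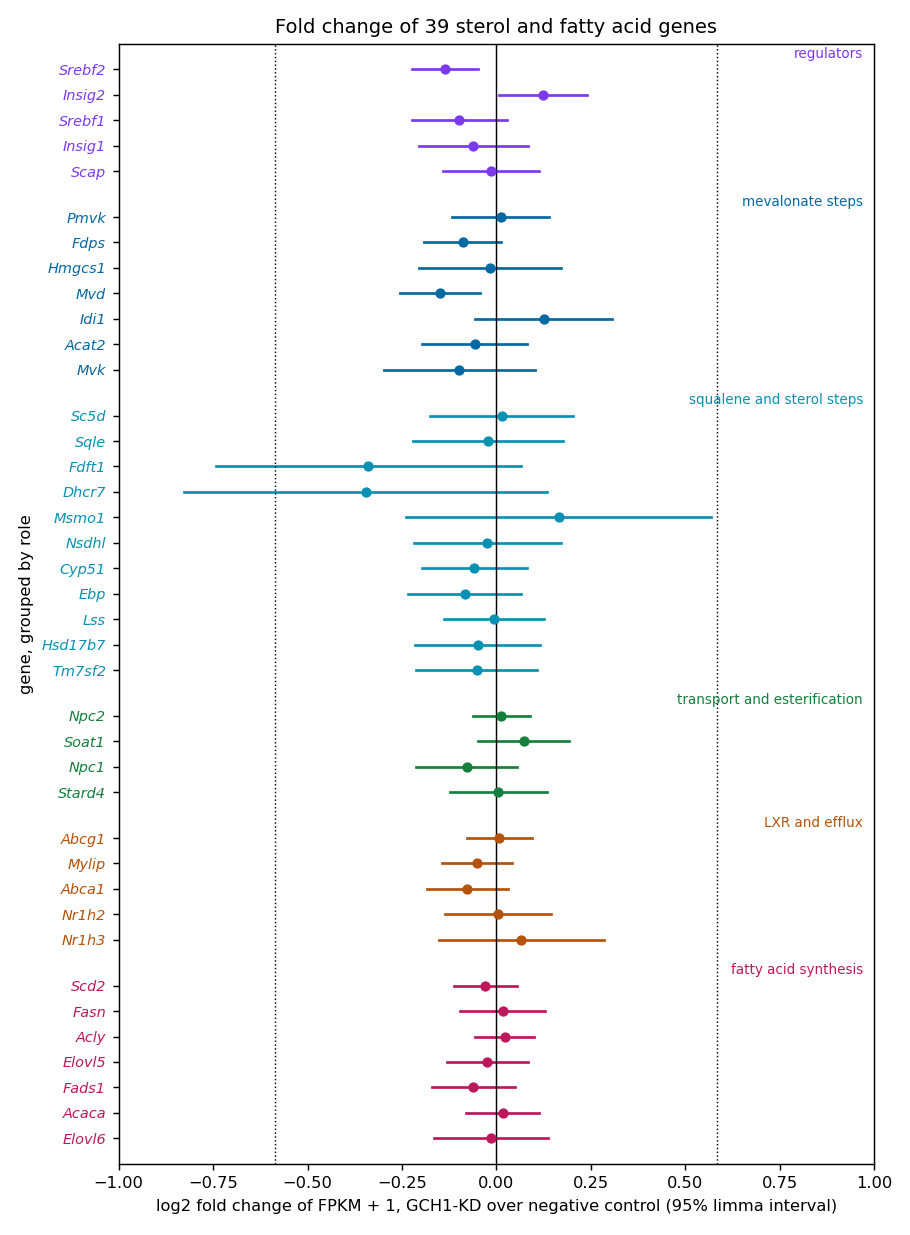
Log2 fold change of FPKM + 1 (x axis, GCH1-KD over negative control) for each of 39 genes grouped by role (y axis); points are limma estimates, bars 95% intervals, and dotted lines mark a 1.5-fold change. All intervals but those of Fdft1 and Dhcr7 lie between the dotted lines, and those of Srebf2, Mvd and Insig2 leave out 0 before adjustment.

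The promoters of 4 genes are shown, and fold changes were not tested against motif content. Srebf2 and Mvd had the smallest p among the genes below control, and Insig2 the smallest among those above it. Hmgcs1 was the 1 gene of the 31 with a window to hold an exact match to the sterol regulatory element searched for. Each promoter is the RefSeq window of 300 bases (GRCm38.p6), 250 before and 50 after an annotated start, on the gene's strand. Motif matches are in capitals. Insig2 has 3 windows, and the one shown is at the start of the gene in GENCODE M21.
Srebf2: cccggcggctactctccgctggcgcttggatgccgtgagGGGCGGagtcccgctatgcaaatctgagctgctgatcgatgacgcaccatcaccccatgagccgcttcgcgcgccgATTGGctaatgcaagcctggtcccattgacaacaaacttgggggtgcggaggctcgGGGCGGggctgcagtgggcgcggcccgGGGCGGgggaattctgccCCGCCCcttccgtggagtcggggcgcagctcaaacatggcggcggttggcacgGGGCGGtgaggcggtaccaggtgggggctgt
Mvd: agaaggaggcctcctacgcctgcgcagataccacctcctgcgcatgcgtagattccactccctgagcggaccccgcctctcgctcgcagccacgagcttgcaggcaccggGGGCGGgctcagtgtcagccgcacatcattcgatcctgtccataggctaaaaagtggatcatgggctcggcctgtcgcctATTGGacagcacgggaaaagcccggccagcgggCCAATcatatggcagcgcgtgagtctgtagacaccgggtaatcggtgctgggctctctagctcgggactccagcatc
Insig2: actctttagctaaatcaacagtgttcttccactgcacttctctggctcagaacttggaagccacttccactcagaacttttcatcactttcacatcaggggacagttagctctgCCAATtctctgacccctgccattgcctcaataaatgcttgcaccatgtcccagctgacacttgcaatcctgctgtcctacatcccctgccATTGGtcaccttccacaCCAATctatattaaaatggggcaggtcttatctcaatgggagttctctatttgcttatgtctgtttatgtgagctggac
Hmgcs1: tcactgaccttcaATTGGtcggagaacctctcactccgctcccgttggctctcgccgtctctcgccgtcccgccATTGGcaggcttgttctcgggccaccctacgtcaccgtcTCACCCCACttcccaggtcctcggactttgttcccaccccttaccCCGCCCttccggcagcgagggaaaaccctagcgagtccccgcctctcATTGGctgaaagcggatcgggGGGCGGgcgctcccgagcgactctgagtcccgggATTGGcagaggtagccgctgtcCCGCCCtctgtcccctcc

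The windows are chr15:82147019-82147318 (plus strand) for Srebf2, chr8:122443373-122443672 (minus strand) for Mvd, chr1:121332540-121332839 (minus strand) for Insig2 and chr13:119690101-119690400 (plus strand) for Hmgcs1. In all, 4 motifs were searched on both strands, and no matches overlapped in these windows. They were the sterol regulatory element TCACNCCAC and the CCAAT box bound by NF-Y. The others were the GC box GGGCGG bound by Sp1 and the LXR direct repeat known as DR4. All were matched exactly, with N as any base, so a window counted as without a motif may hold a near match. The Srebf2 window holds tcaccccat, which differs from the sterol regulatory element in the last base and was not counted. NF-Y and Sp1 are known to act beside SREBPs at sterol genes. The Srebf2 window held 1 CCAAT box and 5 GC boxes, and the Mvd window 2 and 1. The Insig2 window shown held 3 and 0, and the Hmgcs1 window 4 and 3. At least 1 of the Insig2 windows not shown held a GC box, and which Insig2 start these cells use was not tested. The element of Hmgcs1 spans positions -137 to -129, with the start as the origin.

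Windows were at hand for 31 of the 39 genes; those of Fdps, Fdft1, Sqle, Stard4, Npc1, Abcg1, Scd2 and Fads1 were not used here. At least 1 window held a CCAAT box in 24 of the 31 genes (77.4%), against 41.1% of 27025 genes with a window. A GC box was found in 24 of 31 (77.4%), against 38.2%. By exact match, the sterol regulatory element was found in 1 of 31 (3.23%), against 1.44%, and the LXR repeat in 0 of 31, against 0.0148%. The 27025 genes were not limited to those measured in these cells, as the 31 were. The shares therefore do not compare these pathways with other expressed genes, and that comparison was not made. These letters describe the windows only.

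Among the regulators, Srebf2, which encodes the SREBP that chiefly drives cholesterol synthesis, had the smallest p of the 39 genes. Srebf2 (ENSMUSG00000022463.7; GRCm38 chromosome 15, 82147181 to 82205379, plus strand) was at 24.4, 24.4 and 25.6 FPKM in GCH1-KD and at 27.7, 26.9 and 27.3 FPKM in control libraries. Every GCH1-KD library lay below every control, by a mean level at 90.7% of control. The log2 fold change was -0.14 (SE 0.04, 95% interval -0.22 to -0.05), with a limma adjusted p of 0.307. By an exact permutation test (two-sided) p was 0.1, and groups of 3 and 3 cannot reach a lower one.

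Srebf1, which encodes the SREBPs of fatty acid as well as sterol genes, was at 10.1, 10.2 and 10.9 FPKM in GCH1-KD and at 10.6, 11.3 and 11.7 FPKM in control libraries. The highest GCH1-KD library overlapped the lowest control, and the log2 fold change was -0.098 (SE 0.05, limma adjusted p = 0.523). Srebf2 stood 2.34 to 2.42 times above Srebf1 in FPKM in GCH1-KD and 2.34 to 2.61 times above it in control libraries, and the groups overlapped. Srebf1 overlaps coding gene Rai1 on the other strand.

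Insig2, an endoplasmic reticulum anchor of SCAP that unlike Insig1 is not a strong SREBP target, had the smallest p of the genes above control. Insig2 (minus strand of chromosome 1, 121304353 to 121332589) had levels of 13.2, 13.5 and 13.3 FPKM in GCH1-KD and at 12.7, 12.5 and 11.4 FPKM in control libraries. All GCH1-KD values were above all controls, and control 3 was the lowest library. The mean was at 109.5% of control; the log2 fold change was 0.12 (SE 0.05, 95% interval 0.0068 to 0.24, limma adjusted p = 0.417), and 0.080 without control 3. Insig1, the INSIG gene that SREBPs induce, averaged 6.82 ± 0.31 FPKM in GCH1-KD and 7.16 ± 0.50 FPKM in control libraries (SD, n = 3 each). Scap, the escort of SREBPs, averaged 5.41 ± 0.30 FPKM in GCH1-KD and 5.47 ± 0.11 FPKM in control libraries (SD, n = 3 each; log2 fold change -0.014).

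In all, 5 ratios of levels within a library were computed, none of them planned, and no test was made on them. The groups overlapped for Srebf2 over Srebf1 and for Nr1h2 over Nr1h3, and did not for the other 3. Each of those 3 pairs a gene above control with a gene below it. How often other pairs of genes separate the groups was not counted. Insig2 over Insig1 was 1.97, 2.06 and 1.86 in GCH1-KD and 1.84, 1.61 and 1.67 in control libraries. Insig2 over Srebf2, a ratio chosen after the values were seen from genes that lay on opposite sides of control, was 0.542, 0.555 and 0.522 in GCH1-KD and 0.458, 0.464 and 0.418 in control libraries. Abcg1 over Abca1 was 3.34, 3.49 and 3.62 in GCH1-KD and 3.33, 3.16 and 3.33 in control libraries, with the nearest libraries almost level.

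**Figure D2:**
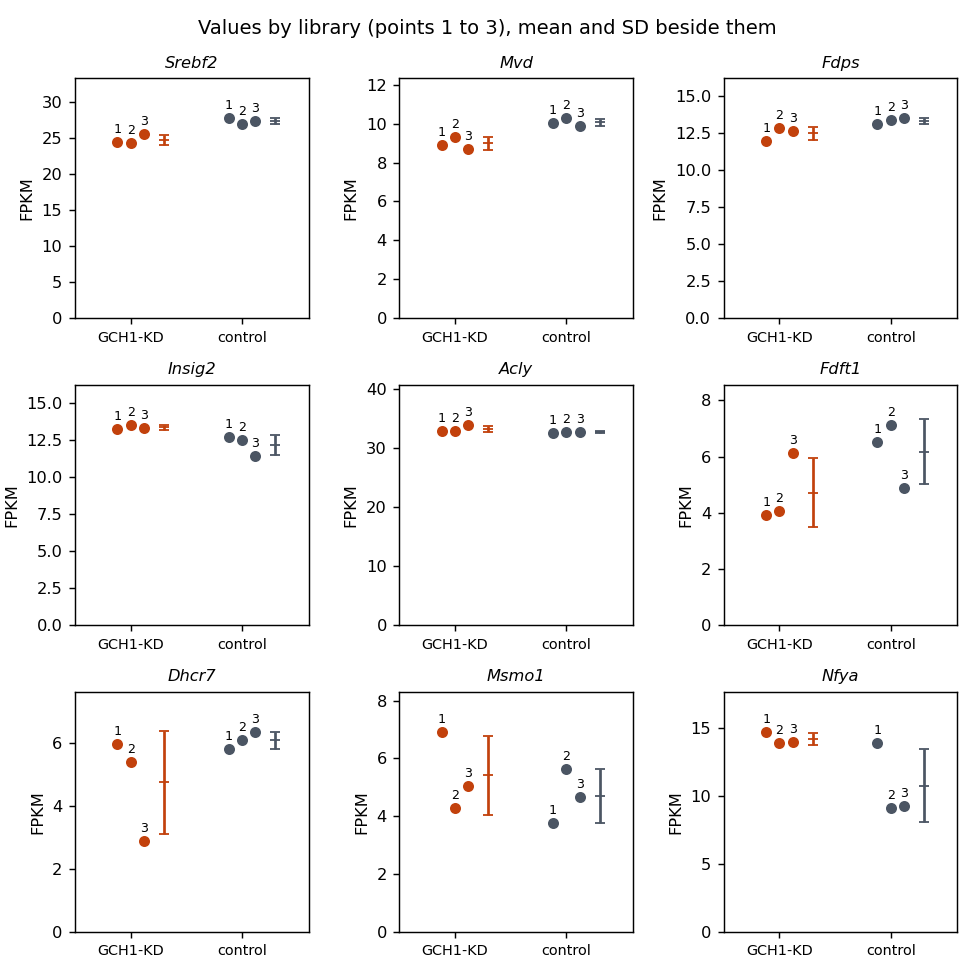
FPKM (y axes, from 0) in the 3 GCH1-KD libraries (left in each panel) and the 3 control libraries (right), with the library number above each point and the mean and SD beside them. The groups do not overlap for Srebf2, Mvd, Fdps, Insig2, Acly and Nfya, although for Acly and Nfya the nearest libraries are almost level; for Fdft1, Dhcr7 and Msmo1 the spread within a group is wide.

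The mevalonate steps ranged from 89.1% of control for Mvd to 111.0% for Idi1. Mvd, the decarboxylase that makes isopentenyl diphosphate (ENSMUSG00000006517.5; minus strand of chromosome 8, 122433601 to 122443422), had levels of 8.92, 9.32 and 8.70 FPKM in GCH1-KD and at 10.05, 10.27 and 9.90 FPKM in control libraries. The groups did not overlap, and the log2 fold change was -0.15 (SE 0.04, 95% interval -0.26 to -0.04, limma adjusted p = 0.334). Mvd overlaps coding gene Gm20388 on the other strand, and no source used here says that strand was used in counting, so reads of that stretch cannot be assigned to either gene.

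Fdps, farnesyl diphosphate synthase, was at 11.95, 12.82 and 12.62 FPKM in GCH1-KD and at 13.1, 13.4 and 13.5 FPKM in control libraries. These groups did not overlap either, and the limma adjusted p was 0.493 (log2 fold change -0.089, SE 0.04). Of the 50-base words in the annotated transcripts of Fdps, 26.2% also occur in transcripts of other genes, most in Gm43738, which overlaps it on the same strand, so its level is uncertain.

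Hmgcs1, the cytosolic synthase that condenses acetoacetyl-CoA with acetyl-CoA, averaged 10.8 ± 1.33 FPKM in GCH1-KD and 10.9 ± 0.34 FPKM in control libraries (SD, n = 3 each), with GCH1-KD library 1 the highest of all at 12.4 FPKM. Its log2 fold change was -0.017 (95% interval -0.21 to 0.17). Mevalonate kinase Mvk averaged 2.54 ± 0.38 FPKM in GCH1-KD and 2.78 ± 0.12 FPKM in control libraries, and phosphomevalonate kinase Pmvk 14.9 ± 0.36 FPKM in GCH1-KD and 14.8 ± 0.98 FPKM in control libraries (SD, n = 3 each). Idi1, which interconverts the isoprenoid diphosphates, averaged 4.85 ± 0.35 FPKM in GCH1-KD and 4.36 ± 0.42 FPKM in control libraries, and the thiolase gene Acat2 4.27 ± 0.27 FPKM in GCH1-KD and 4.49 ± 0.15 FPKM in control libraries (SD, n = 3 each). In all of these the groups overlapped. Acat2 shares 39.1% of its words with other genes, chiefly Acat3, and Idi1 17.7%, chiefly with Gm13502, so these levels are uncertain too.

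The squalene and sterol steps held the genes that varied most between libraries of the same group. Fdft1, squalene synthase, which commits the pathway to sterols (minus strand of chromosome 14, 63145150 to 63179578), had levels of 3.93, 4.07 and 6.12 FPKM in GCH1-KD and at 6.53, 7.12 and 4.89 FPKM in control libraries. GCH1-KD library 3 lay among the controls and control 3 nearer the other GCH1-KD libraries. The mean was at 76.2% of control, and the log2 fold change was -0.34 (SE 0.17, 95% interval -0.74 to 0.06, limma adjusted p = 0.5). It was -0.51 without GCH1-KD library 3 (limma adjusted p = 0.475) and ran from -0.47 to -0.24 with any other library left out. Fdft1 overlaps the far more abundant cathepsin gene Ctsb on the other strand. Ctsb was at 368.9, 360.1 and 378.3 FPKM in GCH1-KD and at 401.3, 380.2 and 381.3 FPKM in control libraries. With the strand setting unknown, reads of these genes cannot be told apart where they overlap, as for Mvd; the same holds for Srebf1, for Cyp51 with Akap9, for Npc1 with Rmc1 and for Acaca with Gm11437.

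Dhcr7, the reductase of the last step to cholesterol (chromosome 7, 143823145 to 143848410, plus strand), was at 5.98, 5.39 and 2.88 FPKM in GCH1-KD and at 5.81, 6.10 and 6.36 FPKM in control libraries. A single library, GCH1-KD library 3, set it apart: the log2 fold change was -0.35 (SE 0.20, 95% interval -0.83 to 0.13, limma adjusted p = 0.545) with all libraries and -0.085 without that one. Msmo1, a methylsterol oxidase, was at 6.91, 4.28 and 5.04 FPKM in GCH1-KD and at 3.76, 5.64 and 4.67 FPKM in control libraries, with the groups interleaved (log2 fold change 0.16, SE 0.17, limma adjusted p = 0.742). Its log2 fold change was 0.0021 without GCH1-KD library 1, 0.29 without GCH1-KD library 2, 0.042 without control 1 and 0.28 without control 2.

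The other 8 genes of this branch were between 90.7% and 100.7% of control. Squalene epoxidase Sqle averaged 7.41 ± 0.30 FPKM in GCH1-KD and 7.56 ± 0.93 FPKM in control libraries, and lanosterol synthase Lss 3.04 ± 0.16 FPKM in GCH1-KD and 3.05 ± 0.08 FPKM in control libraries (SD, n = 3 each). Lanosterol demethylase Cyp51 averaged 3.51 ± 0.18 FPKM in GCH1-KD and 3.70 ± 0.19 FPKM in control libraries, and the sterol isomerase gene Ebp 3.25 ± 0.06 FPKM in GCH1-KD and 3.52 ± 0.29 FPKM in control libraries (SD, n = 3 each). The sterol desaturase gene Sc5d averaged 9.15 ± 0.45 FPKM in GCH1-KD and 9.08 ± 1.02 FPKM in control libraries, and Nsdhl, a sterol dehydrogenase, 4.53 ± 0.47 FPKM in GCH1-KD and 4.62 ± 0.37 FPKM in control libraries (SD, n = 3 each). The scarcest transcripts of the 39 were here: the ketoreductase gene Hsd17b7 averaged 1.09 ± 0.12 FPKM in GCH1-KD and 1.17 ± 0.10 FPKM in control libraries, and the sterol reductase gene Tm7sf2 0.540 ± 0.101 FPKM in GCH1-KD and 0.595 ± 0.020 FPKM in control libraries (SD, n = 3 each). The pseudocount of 1 shrinks the fold change of such genes; for Tm7sf2 the log2 fold change was -0.053 with it and -0.13 with a pseudocount of 0.1, and 9.87% of its words are shared with Vps51, a neighbour on the same strand that overlaps it.

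**Figure D3:**
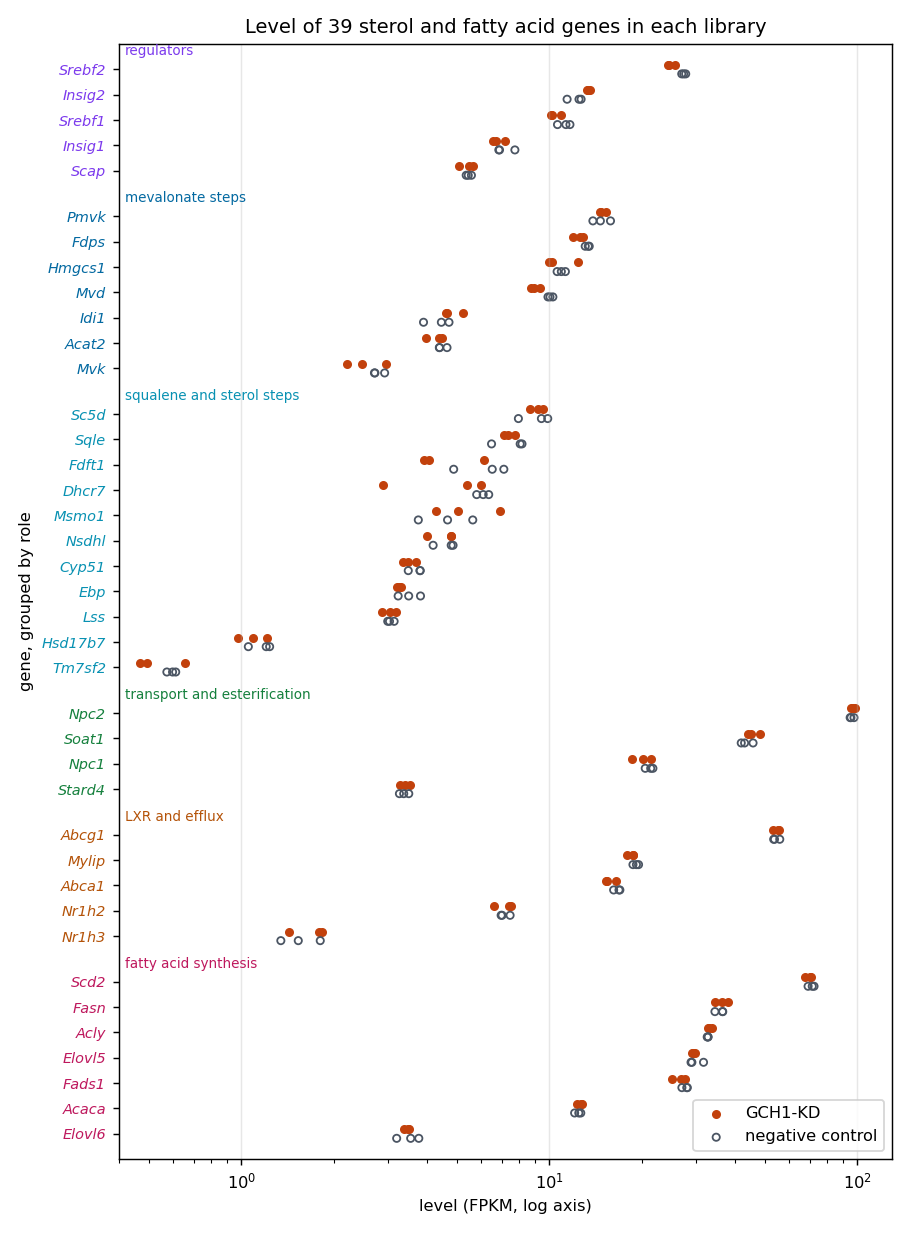
Level in FPKM (x axis, log scale) of each gene (y axis, grouped by role) in the 3 GCH1-KD libraries (filled, upper row of each gene) and the 3 control libraries (open, lower row). Levels span from Tm7sf2, at 0.540 FPKM on average in GCH1-KD and 0.595 FPKM in control libraries, to Npc2, at 96.8 FPKM and 95.9 FPKM in the same groups, and the groups nearly coincide for most genes.

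Of the genes that move and esterify cholesterol, Npc2, Soat1 and Npc1 were each above every gene of the mevalonate and sterol steps in FPKM, and Stard4 was not. Npc2, which with Npc1 carries cholesterol out of lysosomes, averaged 96.8 ± 1.28 FPKM in GCH1-KD and 95.9 ± 1.47 FPKM in control libraries (SD, n = 3 each), the highest of the 39 genes. Its groups overlapped, and the 95% interval of its log2 fold change was -0.06 to 0.09. Npc1 averaged 20.02 ± 1.42 FPKM in GCH1-KD and 21.2 ± 0.62 FPKM in control libraries (SD, n = 3 each). Soat1, the enzyme that esterifies cholesterol for storage in macrophage-like cells, averaged 45.9 ± 2.25 FPKM in GCH1-KD and 43.6 ± 2.002 FPKM in control libraries (SD, n = 3 each; log2 fold change 0.07, limma adjusted p = 0.615). The sterol carrier gene Stard4 averaged 3.39 ± 0.13 FPKM in GCH1-KD and 3.38 ± 0.12 FPKM in control libraries (SD, n = 3 each).

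The LXR and efflux genes were between 94.5% and 107.6% of control. Abca1, which loads cholesterol onto lipid-poor apolipoproteins, was at 16.5, 15.3 and 15.4 FPKM in GCH1-KD and at 16.8, 16.9 and 16.2 FPKM in control libraries. GCH1-KD library 1 lay among the controls, and the log2 fold change was -0.077 (SE 0.05, limma adjusted p = 0.546). Abcg1, the partner pump that exports to mature lipoproteins, averaged 54.8 ± 1.30 FPKM in GCH1-KD and 54.4 ± 1.35 FPKM in control libraries (SD, n = 3 each), with a 95% interval of -0.08 to 0.09 for its log2 fold change. Mylip, the ubiquitin ligase that LXRs induce against lipoprotein receptors, averaged 18.4 ± 0.49 FPKM in GCH1-KD and 19.1 ± 0.40 FPKM in control libraries (SD, n = 3 each). Of the receptors, LXRβ (Nr1h2) averaged 7.19 ± 0.48 FPKM in GCH1-KD and 7.15 ± 0.27 FPKM in control libraries, and LXRα (Nr1h3) 1.68 ± 0.22 FPKM in GCH1-KD and 1.56 ± 0.23 FPKM in control libraries (SD, n = 3 each). Nr1h2 stood above Nr1h3 in every library, by 3.72 to 5.24 times in FPKM.

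The 7 measured fatty acid genes were between 95.8% and 101.6% of control. Acly, the citrate lyase that supplies cytosolic acetyl-CoA, was at 32.9, 32.8 and 33.8 FPKM in GCH1-KD and at 32.6, 32.7 and 32.8 FPKM in control libraries. Its groups did not overlap, and the mean was at 101.6% of control, with a log2 fold change of 0.022 (95% interval -0.06 to 0.10, limma adjusted p = 0.828); it was 0.0079 without GCH1-KD library 3. The acetyl-CoA carboxylase gene Acaca averaged 12.6 ± 0.25 FPKM in GCH1-KD and 12.4 ± 0.29 FPKM in control libraries, and fatty acid synthase Fasn 36.3 ± 1.76 FPKM in GCH1-KD and 35.8 ± 1.18 FPKM in control libraries (SD, n = 3 each). Acaca shares 30.4% of its words with other genes, chiefly Gm5182, so its level is uncertain.

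Scd2, a desaturase that makes monounsaturated fatty acids, was the second most abundant of the 39 genes, at 69.5 ± 1.53 FPKM in GCH1-KD and 71.0 ± 1.61 FPKM in control libraries (SD, n = 3 each). The elongase genes Elovl5 and Elovl6 were at 98.2% and 98.6% of control, and Fads1, a desaturase of polyunsaturated fatty acids, averaged 26.5 ± 1.33 FPKM in GCH1-KD and 27.7 ± 0.61 FPKM in control libraries (SD, n = 3 each). Scd2 shares 3.97% of its words with Scd1 and other Scd genes.

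Summed over roles, the regulators and the mevalonate steps were lower in every GCH1-KD library than in every control, by small amounts. The 5 regulators summed to 59.9, 59.7 and 62.7 FPKM in GCH1-KD and to 63.5, 63.8 and 62.7 FPKM in control libraries, 95.9% of control, with GCH1-KD library 3 almost level with control 3. The 7 mevalonate-pathway genes summed to 59.1, 59.4 and 58.0 FPKM in GCH1-KD and to 61.9, 60.2 and 60.1 FPKM in control libraries, 96.9% of control. The squalene and sterol genes were at 94.3%, transport and esterification at 101.2%, LXR and efflux at 98.8% and fatty acid synthesis at 99.0% of control, with groups that overlapped. The abundant genes of a role dominate such sums, and no test was made on them. How often sums of other genes separate the groups was not counted. The sums without overlap hold Srebf2, Mvd and Fdps, already given as without overlap. Srebf2 averaged 24.8 FPKM in GCH1-KD and 27.3 FPKM in control libraries, and the regulators' sum 60.8 and 63.4 FPKM. Mvd averaged 8.98 and 10.07 FPKM, Fdps 12.5 and 13.3 FPKM, and the mevalonate sum 58.8 and 60.7 FPKM, in the same groups. Of the regulators 1 was above control, and of the mevalonate steps 2.

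A further 76 genes of these pathways were listed, and 64 were tested: SREBP processing, further synthesis steps, uptake, LXR partners and oxysterol enzymes, and other fatty acid genes. Of these, 0 passed the adjusted threshold, against 0.0818% of all genes. At an unadjusted p under 0.05 there were 7 (10.9% against 11.3% of all genes). Of those, 2 were higher (3.12% against 6.47%) and 5 lower (7.81% against 4.82%). In 11 the groups did not overlap (17.2% against 18.4%). The median log2 fold change of the 64 was -0.015, beside 0.0071 over all genes, with 39 below control (60.9% against 47%). No test was made on the list as a whole. The 4 with the smallest p were Erg28, Mlxip, Slc25a1 and Nfya. Erg28, a scaffold of sterol enzymes in yeast, was at 4.32, 4.42 and 4.35 FPKM in GCH1-KD and at 3.46, 3.95 and 3.57 FPKM in control libraries (log2 fold change 0.20, limma adjusted p = 0.317). Mlxip, a glucose-sensing transcription factor gene, was at 6.43, 7.78 and 8.46 FPKM in GCH1-KD and at 9.96, 8.80 and 9.90 FPKM in control libraries (log2 fold change -0.31, limma adjusted p = 0.346). The groups overlapped in neither gene. Slc25a1, the mitochondrial citrate carrier gene, was at 19.3, 19.8 and 23.5 FPKM in GCH1-KD and at 23.9, 23.8 and 24.6 FPKM in control libraries (log2 fold change -0.20, limma adjusted p = 0.379).

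Nfya, which encodes the DNA-binding subunit of the CCAAT-box factor NF-Y, was the only gene of either list to pass under any of the alternatives run. It was at 14.7, 13.9 and 13.9 FPKM in GCH1-KD and at 13.8, 9.13 and 9.25 FPKM in control libraries. Control 1 stood level with the GCH1-KD libraries, and the other controls well below them. With all libraries the log2 fold change was 0.39 (SE 0.14, limma adjusted p = 0.384); without control 1 it was 0.57 (limma adjusted p = 0.0301).

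Fold changes also went with the GC content of transcripts across the whole table. Over 12198 genes Spearman's rho between the fold change and the GC content of the longest annotated transcript was -0.30. Over the 39 genes it was -0.31. Genes share libraries and are not replicates, so no p is given. The tilt varied by library and the groups overlapped. Spearman's rho between GC content and a gene's deviation from its mean over the libraries was -0.38, -0.18 and 0.069 in GCH1-KD libraries 1 to 3. In control libraries 1 to 3 it was 0.26, -0.23 and 0.43. Srebf2 and Mvd, at 57.9% and 59.0% GC, and Insig2, at 46.0%, lie on the sides to which all genes tilt; the part of GC content in these differences was not tested beyond the correction below. With the trend of GC content and length removed from each library, the log2 fold change was -0.094 for Srebf2, -0.12 for Mvd and 0.11 for Insig2 (limma adjusted p of 0.303, 0.377 and 0.402). The median of the 39 genes was then -0.046, and 25 were again below control. In 8 the groups did not overlap, where 5 had no overlap before. The share of all genes without overlap was not counted after this correction, so the 8 have no background beside them.

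**Figure D4:**
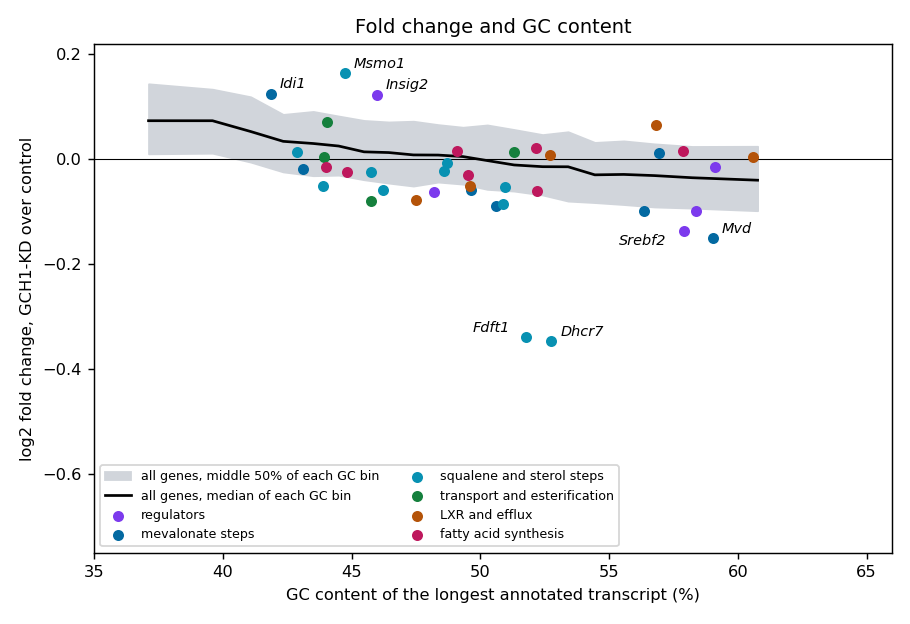
Log2 fold change (y axis, GCH1-KD over negative control) against the GC content of the longest annotated transcript (x axis, %) for the 39 genes, coloured by role, with the median and the middle 50% of all genes in 20 bins of GC content. All genes tilt from above 0 at low GC to below 0 at high GC; Srebf2 and Mvd lie below the band at the same GC content, Insig2, Msmo1 and Idi1 above it, and Fdft1 and Dhcr7 far below.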

How the data were processed

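The authors deposited 1 table, genes by libraries, and named no unit. The deposited values were read as FPKM, since they are not whole and their sums differ between libraries; StringTie, HISAT2 and edgeR appear in the submitters' processing notes without roles or versions, as does the human build hg38, although the identifiers are mouse Ensembl genes. No source used here gives the strand setting or the annotation. Depth was estimated from genes with 1 annotated transcript, where FPKM times length falls on multiples of a fixed step. The values that came within 0.1 of a multiple made up 64.0% to 67.5%. Chance would give 20.0% for a step fixed beforehand, but the step was chosen for its fit to these same values. On the score used to choose it, a mean cosine, the step reached 0.53 to 0.61 across libraries. The best step elsewhere reached 0.14 to 0.19.

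Symbols and coordinates are from GENCODE M21 (GRCm38), which matched 12300 of 12327 identifiers without their version. The test, limma 3.58.1 under R 4.3.3, took genes that reached 0.5 FPKM in 3 or more libraries (trended empirical Bayes, log2(FPKM + 1), BH adjustment, tested on simulated data). Other calculations used Python 3.11.15, numpy 2.4.6, pandas 2.3.3 and scipy 1.17.1. Shared sequence is the percent of 50-base words of a gene's transcripts found in another gene's. Each measured member was described; library values were given for the 8 smallest p and for groups without overlap, and, chosen after their values were seen, for Msmo1 and Ctsb and for 1 library of Hmgcs1. Of the pathway list, the 4 smallest p were named. Members and lists were chosen with earlier results of these data known. No column belonged to another series. The planned ratio of Scd2 to Scd1 was not made, since Scd1 is not analysed here.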

Additional observations from a re-analysis of the deposited data

How the results depend on the processing

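Across 17 alternatives, 0 of the 39 genes passed the limma threshold in 651 comparisons (lowest adjusted p 0.287), and 40 comparisons changed sign, all in uncalled genes. The combined block and GC correction was chosen after seeing the data. The count of all genes called was 0 with a replicate block, alone or together with the GC and length correction, where the limma adjusted p of Gch1 was 0.0604 and 0.0776 (log2 fold change -0.96 and -0.97). Same-numbered libraries correlated at 0.095, 0.059 and 0.094 across genes after removal of group means, all below the minimum of 0.1 set for a pairing. Every library correlated best with the library of its number in the other group. Removal of group means ties these correlations to one another, and only the data hint at a pairing. With the block, with or without the GC and length correction, 2 of the 39 genes were at an unadjusted p under 0.05. The members' median was -0.046 and 8 had groups without overlap with the GC and length trend removed, with or without the block. With a mean of at least 5 FPKM, 16 of 27 members were below control and 791 genes of all were at an unadjusted p under 0.05. Leaving out 1 library at a time, 6 to 18 genes were called (18 without control 2, 6 without GCH1-KD 2 or 3). Then 6 to 14 members had groups without overlap, as fewer libraries make likelier (14 without control 1, 13 without GCH1-KD 3). The share of all genes without overlap was not counted in any of the alternatives, so these member counts have no background beside them. The members' median ran from -0.047 without control 1 to -0.012 without control 2, and 0 to 1 pathway genes passed (Nfya, without control 1). No scaling moved the median of all genes by over 0.008. Depth limits Tm7sf2 most.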
